A study of Mus musculus with 9 samples.

Results

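The genes Reln, Ecm1, Colec10, Colec11 and Angptl6 code for secreted proteins and were examined as a group because they are markers of the quiescent hepatic stellate cell. They were taken by gene name, as 5 of the 35024 gene rows of the deposited expression table, with their values in all 9 libraries. The libraries came from bulk RNA sequencing of mouse stellate cells, the pericytes of the liver that store vitamin A, which were sorted by flow cytometry on the autofluorescence of their retinoids and lysed directly afterwards. All animals were on a C57BL/6J background, carried floxed Yap1, and received 6 intraperitoneal injections of carbon tetrachloride (CCl4, a hepatotoxin, given in corn oil at a labelled dose of 0.5 mg/kg) at intervals of 3 days, with cells isolated 2 days after the last one. The control group was YAP f/f without LratCre (5 libraries: LYT004, LYT005, LYT014, LYT015 and LYT017), and the YAP-deleted group was YAP f/f with LratCre (4 libraries: LYT006, LYT008, LYT013 and LYT016). The promoter of Lrat, a retinoid-storing enzyme of stellate cells, drives Cre. By label, every YAP-deleted library carries LratCre while no control does, so loss of Yap1 and presence of Cre cannot be told apart. The measured Yap1 level went against the label in LYT013 and LYT014, as given below. Both groups are from injured liver, and uninjured cells were not analysed here. The labels give no ages and do not say that the libraries are separate mice, and a p-value therefore reflects only how much these libraries vary, which may be in part technical variation.

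Reelin, the product of Reln, is a large glycoprotein of the extracellular matrix known for guiding migrating neurons through the receptors VLDLR and ApoER2 (the gene Lrp8) and the adaptor DAB1; in liver it is a marker of stellate cells. ECM1, extracellular matrix protein 1, is known in mouse liver for holding transforming growth factor beta in its latent form. Colec10 and Colec11 encode the collectins CL-L1 and CL-K1, soluble sugar-binding proteins that form mixed oligomers and start the lectin pathway of complement together with MASP proteases. ANGPTL6 is a secreted angiopoietin-like protein known for effects on vessels and energy metabolism. Stellate cells that become myofibroblasts after injury lose their retinoid stores and many genes of the resting state, and gain contractile and collagen genes.

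The 4 members with an entry in the RefSeq promoter table (GRCm38.p6) were Reln, Ecm1, Colec11 and Angptl6. The stretch before each start site is shown because these genes differed in how they varied between libraries, as described below. Each runs 5′ to 3′ on the strand of its gene, and capitals mark a match to one of the motifs searched.
Reln (chr5:22344706-22344955, minus strand): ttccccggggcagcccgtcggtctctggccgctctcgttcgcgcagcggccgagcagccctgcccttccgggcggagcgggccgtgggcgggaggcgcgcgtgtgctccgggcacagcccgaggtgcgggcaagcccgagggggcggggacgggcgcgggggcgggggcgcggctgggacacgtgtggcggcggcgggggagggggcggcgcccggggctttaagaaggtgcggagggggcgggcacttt
Ecm1 (chr3:95739570-95739819, minus strand): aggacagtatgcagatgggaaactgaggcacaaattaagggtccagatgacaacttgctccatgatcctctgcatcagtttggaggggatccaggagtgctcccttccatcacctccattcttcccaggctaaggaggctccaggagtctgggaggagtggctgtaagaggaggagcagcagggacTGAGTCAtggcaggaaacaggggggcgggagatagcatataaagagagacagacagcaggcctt
Colec11 (chr12:28623378-28623580, minus strand): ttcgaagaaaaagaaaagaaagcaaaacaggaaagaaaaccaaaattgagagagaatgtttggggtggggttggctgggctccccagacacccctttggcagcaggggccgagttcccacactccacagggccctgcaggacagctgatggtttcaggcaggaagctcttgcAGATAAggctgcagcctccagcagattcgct
Angptl6 (chr9:20879728-20879960, minus strand): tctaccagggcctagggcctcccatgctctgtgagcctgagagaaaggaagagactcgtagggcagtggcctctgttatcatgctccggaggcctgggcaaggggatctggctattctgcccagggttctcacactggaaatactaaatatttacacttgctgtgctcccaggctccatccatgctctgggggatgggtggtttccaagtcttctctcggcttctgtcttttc
The motifs were searched on both strands. The letters GGAATG stood for TEAD factors and TGAGTCA for AP-1. For the GATA factors AGATAA was searched, and for LIM homeodomain factors TAATTA. The search covered the 250 bases before each RefSeq start, and the printed stretches of Colec11 (203 bases) and Angptl6 (233 bases) leave out the last of these, which lie inside the gene limits of GENCODE M21. No match overlapped another, and each lay in a printed stretch. Counted back from the last printed base, which is -1, the Ecm1 stretch held TGAGTCA from -64 to -58 and the Colec11 stretch AGATAA from -31 to -26. The 250 bases of Reln and of Angptl6 held none of the 4 letter strings. Among the same 250 bases of 27025 promoters, GGAATG was found in 12.6%, TGAGTCA in 4.43%, AGATAA in 10.3% and TAATTA in 4.9%, so matches of this kind are common, and a match is a description of letters and no evidence of binding. The Reln stretch was 80.0% G and C, against 54.0% for Ecm1, 53.2% for Colec11 and 54.5% for Angptl6.

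The deposited values were log2-like, and their inverse gave normalised counts, that is, counts divided by the size factor of the library. Library totals ran from 14052502 to 31816055 counts. Yap1 was measured at 2902, 2915, 3653 and 3551 normalised counts in the control libraries LYT004, LYT005, LYT015 and LYT017, and at 642, 648 and 645 in the YAP-deleted libraries LYT006, LYT008 and LYT016. LYT014, labelled control, had 618, and LYT013, labelled YAP-deleted, had 2530, so both went against their labels. Their group was kept as labelled, and the comparison of each member is given with all 9 libraries and with the 7 others. The sort was checked on Lrat, which lay between 35209 and 69555 normalised counts in every library. Single defining markers of other liver cells were far lower: Alb (hepatocytes) reached 763 normalised counts, Stab2 (sinusoidal endothelium) 408, Clec4f (Kupffer cells) 118, Msln (mesothelium) 34.9, Ptprc (leukocytes) 30.9 and Krt19 (cholangiocytes) 4.17. Other genes of these marker lists were higher: Trf (hepatocyte list) reached 5299, and Eln and Cd34 (portal fibroblast and mesothelium list) reached 6686 and 1308. Myh11, a smooth muscle marker, was measured at 1987 to 3860.

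All 5 genes were strongly expressed in every library, and all libraries came from injured liver. The cells were sorted on retinoid autofluorescence and uninjured cells were not analysed here, so whether injury changed these levels was not tested. Together the 5 genes made up 1.6% to 3.07% of all counts. By normalised count, Reln ranked between 2 and 16 among all genes of a library, Ecm1 between 2 and 14, Colec10 between 18 and 50, Colec11 between 21 and 69, and Angptl6 between 83 and 367. No member differed between the groups past the threshold, and Ecm1 and Angptl6 had the largest differences, both toward higher values in YAP-deleted libraries. In bulk RNA, fewer cells of a type and less RNA per cell cannot be told apart.

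**Figure D1:**
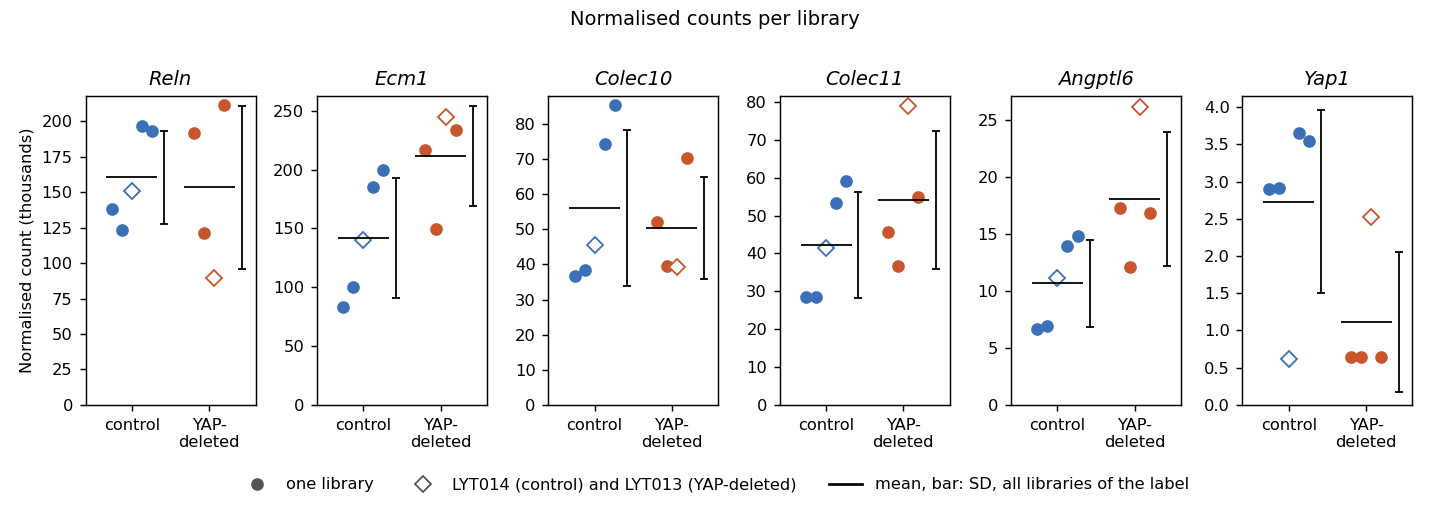
Normalised counts (linear axes from 0, scaled as the axis label states) of the 5 genes and of Yap1, 1 panel per gene, by labelled group; each point is 1 library, open diamonds are LYT014 and LYT013, horizontal lines are group means and vertical bars the SD over all libraries of the label. Control and YAP-deleted values overlap in each panel, and LYT013 is the highest point for Ecm1, Colec11 and Angptl6 and the lowest for Reln.

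Ecm1 (chromosome 3, 95734147 to 95739569 on GRCm38, minus strand) is the regulator of latent transforming growth factor beta in this group. The control libraries LYT004, LYT005, LYT014, LYT015 and LYT017 had 83116, 100626, 140264, 185149 and 199346 normalised counts. The YAP-deleted libraries LYT006, LYT008, LYT013 and LYT016 had 216760, 149862, 245061 and 233297. Only LYT008 among the YAP-deleted libraries lay within the control range, and LYT004 and LYT005 were the lowest libraries of all. The means were 141700 ± 50823 (SD, n = 5) in control and 211245 ± 42536 (SD, n = 4) in YAP-deleted libraries, a difference of 0.63 ± 0.34 log2 units (limma, SE; 95% interval -0.11 to 1.37), with an adjusted p of 0.649 over all genes by limma. Without LYT013 and LYT014 the difference was 0.57 ± 0.40 (95% interval -0.36 to 1.49; limma adjusted p = 0.862). Both intervals include 0 and also a difference of 1 log2 unit.

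Reln (chromosome 5, 21884454 to 22344702, minus strand) codes for the largest protein of the group. It was measured at 138401, 123174, 150781, 196423 and 192911 normalised counts in control LYT004, LYT005, LYT014, LYT015 and LYT017. In YAP-deleted LYT006, LYT008, LYT013 and LYT016 it was at 191518, 121539, 89403 and 211506. The YAP-deleted libraries held both the highest value and the lowest one, so the control range lay inside the YAP-deleted range. The means were 160338 ± 32851 (SD, n = 5) and 153491 ± 57562 (SD, n = 4), and the difference was -0.12 ± 0.32 log2 units (SE; 95% interval -0.84 to 0.59; limma adjusted p = 0.909). Without LYT013 and LYT014 it was 0.09 ± 0.34 (limma adjusted p = 0.978), on the other side of 0.

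Colec10 (chromosome 15, 54410774 to 54466358, plus strand) and Colec11 (chromosome 12, 28594173 to 28623377, minus strand) encode the collectin pair. Colec10 had 36653, 38334, 45546, 74263 and 85314 normalised counts in control LYT004, LYT005, LYT014, LYT015 and LYT017. It had 52207, 39650, 39322 and 70278 in YAP-deleted LYT006, LYT008, LYT013 and LYT016. All YAP-deleted values lay within the control range, whose ends were the controls LYT004 and LYT017. The Colec10 difference was -0.11 ± 0.31 log2 units (SE; 95% interval -0.78 to 0.57; limma adjusted p = 0.916) with 9 libraries and -0.05 ± 0.36 (limma adjusted p = 0.985) with 7. Colec11 had 28543, 28614, 41358, 53297 and 59023 normalised counts in the same control order. It had 45612, 36639, 78968 and 54916 in the YAP-deleted order. Of the YAP-deleted libraries only LYT013 lay above the control range for Colec11. The Colec11 difference was 0.36 ± 0.30 log2 units (SE; 95% interval -0.29 to 1.02; limma adjusted p = 0.693) with 9 libraries and 0.17 ± 0.31 (limma adjusted p = 0.954) with 7. The group means of Colec10 were 56022 ± 22296 (SD, n = 5) in control and 50364 ± 14568 (SD, n = 4) in YAP-deleted libraries, and those of Colec11 were 42167 ± 13946 and 54034 ± 18221.

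Angptl6 (chromosome 9, 20873808 to 20879727, minus strand), the angiopoietin-like member, had the fewest counts and the widest range, 3.94-fold between its lowest and highest library against 2.33-fold to 2.95-fold for the others. It was measured at 6643, 6944, 11106, 13939 and 14865 normalised counts in control LYT004, LYT005, LYT014, LYT015 and LYT017. The YAP-deleted libraries LYT006, LYT008, LYT013 and LYT016 had 17298, 12086, 26141 and 16818. As for Ecm1, LYT008 was the one YAP-deleted library inside the control range. The means were 10700 ± 3826 (SD, n = 5) and 18086 ± 5863 (SD, n = 4), and the difference was 0.78 ± 0.29 log2 units (SE; 95% interval 0.14 to 1.42). Its unadjusted limma p was 0.0216 and its adjusted p 0.649. Without LYT013 and LYT014 the difference was 0.62 ± 0.32 (95% interval -0.11 to 1.34), with an unadjusted limma p of 0.0846 and an adjusted p of 0.793.

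With all 9 libraries, 0 of the 5 members passed an adjusted p of 0.05 in limma, and 0 of the 17203 genes tested did (0%). At an unadjusted p under 0.05 there was 1 member, Angptl6, against 1242 genes (7.22%). When the recovered counts were fitted with limma voom, 0 genes were called, with 1319 at an unadjusted p under 0.05. With 7 libraries, limma called 0 members and 11 of 16372 genes (0.0672%), and at an unadjusted p under 0.05 there were 0 members against 1050 genes (6.41%). Yap1 was among the 11, at -2.22 log2 units (limma adjusted p = 8.97e-05). The groups overlapped for every member in both sets of libraries, while 2.84% of all genes with 9 libraries and 7.59% with 7 had groups that did not. The median difference over the members was 0.36 with 9 libraries and 0.17 with 7, against -0.005 and -0.004 over all genes tested.

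**Figure D2:**
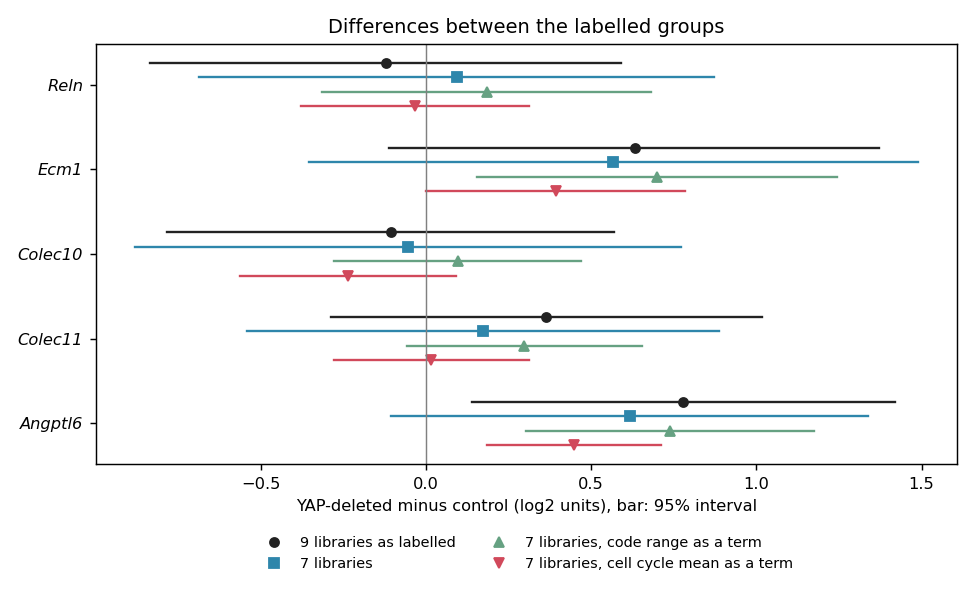
Difference of each of the 5 genes, YAP-deleted minus control in log2 units, with 95% intervals from limma before adjustment, for all 9 libraries, for the 7 without LYT013 and LYT014, and for those 7 with the range of library codes or the cell cycle mean as a further term. The points of Ecm1, Colec11 and Angptl6 lie to the right of 0 in all 4 fits, and those of Reln and Colec10 lie on both sides. Every interval of Colec11 includes 0. Without a further term, so do both intervals of Ecm1 and the 7-library interval of Angptl6.

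The members also varied among libraries of the same label. LYT004 and LYT005 were the lowest libraries for Ecm1, Colec10, Colec11 and Angptl6, and neither was lowest for Reln. Among the libraries with codes from 4 to 8, 4 of the 5 members were higher in both YAP-deleted libraries (LYT006 and LYT008) than in both controls (LYT004 and LYT005): by 0.98 log2 units for Ecm1, 1.08 for Angptl6, 0.52 for Colec11 and 0.28 for Colec10. With 2 libraries against 2, 20.8% of all genes were higher without overlap, and an exact permutation test of such groups cannot pass 0.05, so none was run. Among the codes from 13 to 17 (3 controls and 2 YAP-deleted libraries) the differences were 0.47 for Ecm1, 0.66 for Angptl6, 0.38 for Colec11, -0.33 for Colec10 and -0.38 for Reln. When LYT013 and LYT014 were left out of that range, 1 YAP-deleted library remained, and the differences were 0.28 for Ecm1, 0.22 for Angptl6, -0.03 for Colec11, -0.18 for Colec10 and 0.12 for Reln. The labels do not say what the codes stand for.

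The libraries with the highest levels of proliferation and activation genes were LYT004, LYT005 and LYT008. The summed normalised counts of 15 cell cycle genes were 20073 and 27422 in LYT004 and LYT005 and 18475 in LYT008, against 7022 in LYT014 and 2098 to 3046 in the other 5 libraries. The summed counts of 15 stellate cell activation genes were 855384 and 870230 in LYT004 and LYT005 and 623313 in LYT008, against 277344 to 402463 in the others. The libraries high in both sums were thus the controls with the lowest Ecm1, Colec11 and Angptl6 and the YAP-deleted library with the lowest Ecm1, Colec11 and Angptl6. Reln and Colec10 did not follow this order in LYT013, which was low in both sums and had the lowest Reln of all libraries. With the range of library codes as a term in the fit of 7 libraries, the differences were 0.70 ± 0.24 log2 units for Ecm1 (SE; limma adjusted p = 0.341) and 0.74 ± 0.19 for Angptl6 (limma adjusted p = 0.228). With the cell cycle mean as a term instead, the differences were 0.39 ± 0.18 log2 units for Ecm1 (limma adjusted p = 0.412), 0.45 ± 0.12 for Angptl6 (limma adjusted p = 0.196), 0.02 for Colec11, -0.24 for Colec10 and -0.03 for Reln. Over all alternatives run with 7 libraries, the limma adjusted p ran from 0.341 to 0.999 for Ecm1 and from 0.196 to 0.999 for Angptl6. The summed markers of macrophages were also lowest in LYT005 and LYT004: the list of 12 genes ran from 716 to 1929 normalised counts in control and from 1051 to 2600 in YAP-deleted libraries, with 10 of 12 differences positive and 0 called with 9 libraries. For the 12 hepatocyte markers the sums were 3045 to 4868 in control and 3840 to 6075 in YAP-deleted libraries, with 10 of 12 differences positive with 9 libraries and 3 of 12 with 7. Trf, at 2074 to 5299 normalised counts, made up most of each hepatocyte sum. The 10 endothelial genes summed to 1125 to 4833 in control and 1726 to 4266 in YAP-deleted libraries, with 8 of 10 differences negative with 9 libraries and 5 of 10 with 7. The 9 genes of portal fibroblasts and mesothelium summed to 3316 to 8203 in control and 3286 to 8178 in YAP-deleted libraries, and the highest sums were those of LYT004 and LYT008. Eln, at 2678 to 6686 normalised counts, made up most of each of these sums. The 6 smooth muscle genes summed to 71158 to 109606 in control and 83968 to 125054 in YAP-deleted libraries. However, 5 of 6 differences were negative with 9 and with 7 libraries, with medians of -0.27 and -0.39. Myh11 reached only 3860 normalised counts, Synpo2 727, Lmod1 323 and Actg2 58.9, so the other genes of the list, Cnn1 and Rgs5, made up most of each sum. The part of these cells and programmes in the differences of the members was not tested beyond the cell cycle term.

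**Figure D3:**
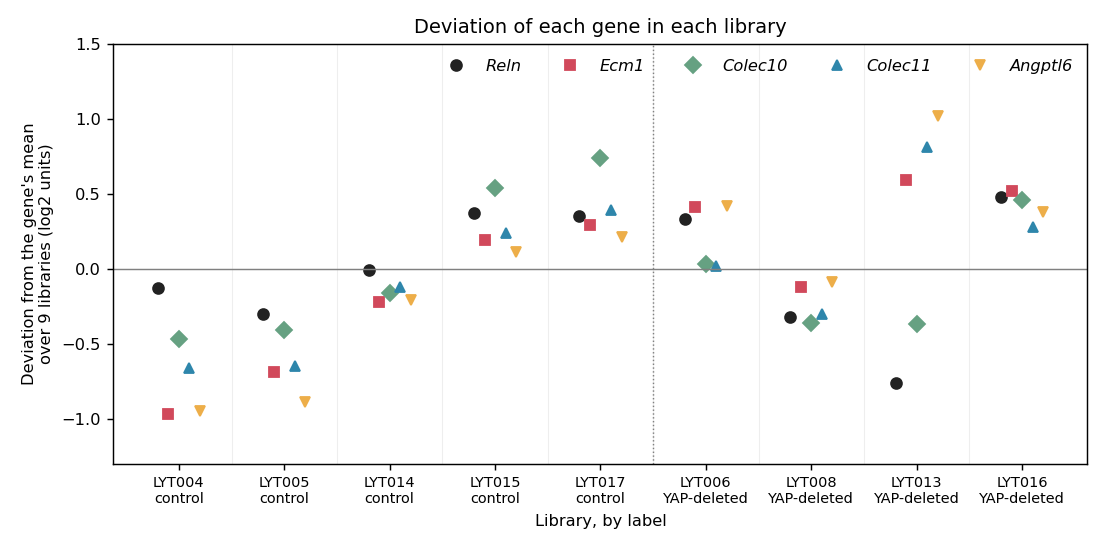
Deviation of each gene from its own mean over 9 libraries, in log2 units, by library, with controls left and YAP-deleted libraries right of the dotted line and 1 symbol per gene. All 5 genes are below 0 in LYT004 and LYT005, and the symbols spread apart in LYT013, from -0.76 for Reln to 1.02 for Angptl6.

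LYT013 stood apart in the proportions among the members. There Ecm1, Colec11 and Angptl6 lay 0.59, 0.81 and 1.02 log2 units above their means, while Colec10 and Reln lay 0.37 and 0.76 log2 units below theirs. The count ratio of Colec11 to Colec10 was 2.01 in LYT013 and 0.69 to 0.92 in the other 8 libraries. The ratio of Ecm1 to Reln was 2.74 there and 0.6 to 1.23 elsewhere. The members high in LYT013 have the shorter transcripts (1423 to 1900 bases for the longest coding form in GENCODE M21) and the low ones the longer transcripts (4587 and 11699 bases). Over all genes of LYT013, the median deviation was 0.256 log2 units in the shortest of 5 equal classes of transcript length and -0.376 in the longest, whereas in the other libraries these medians lay between -0.107 and 0.114. After a smooth trend in length and GC content was removed from each library, a step chosen after seeing the data, LYT013 was still the highest library for Angptl6 (14.34 on the log2 scale, against 14.11 in LYT016) and Colec11 (15.94 against 15.91 in LYT017). Ecm1 in LYT013 (17.62) was then below LYT016 (17.88), and Reln in LYT013 (17.02) was no longer the lowest. For Ecm1, LYT013 and LYT006 (17.68) were also below the control LYT017 (17.70). Only LYT016 then lay above the control range of Ecm1.

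Levels between genes were compared per kilobase of that longest coding transcript. Over the 9 libraries Ecm1 had 90847 ± 30296 normalised counts per kb (SD), Colec11 33339 ± 11350, Reln 13445 ± 3622, Colec10 11665 ± 4002 and Angptl6 8838 ± 3759. Ecm1 was above Colec11 and Colec11 above Reln in 9 of 9 libraries. Reln was above Colec10 in 7 of 9 libraries, with ratios from 0.89 to 1.48. Colec10 was above Angptl6 in 8 of 9, with ratios from 0.52 to 1.98, and the exception was LYT013. The order of these neighbours thus changed between libraries, and their differences were not tested. Colec11 exceeded its partner Colec10 in every library per kb, although it had fewer counts in all but LYT013. Per kb, Ecm1 ranked between 2 and 12 and Colec11 between 12 and 27 among 17110 genes. The value depends on the transcript form chosen, and with the median coding length of each gene the mean of Ecm1 was 193300 per kb in place of 90847, with the order of the 5 means the same.

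**Figure D4:**
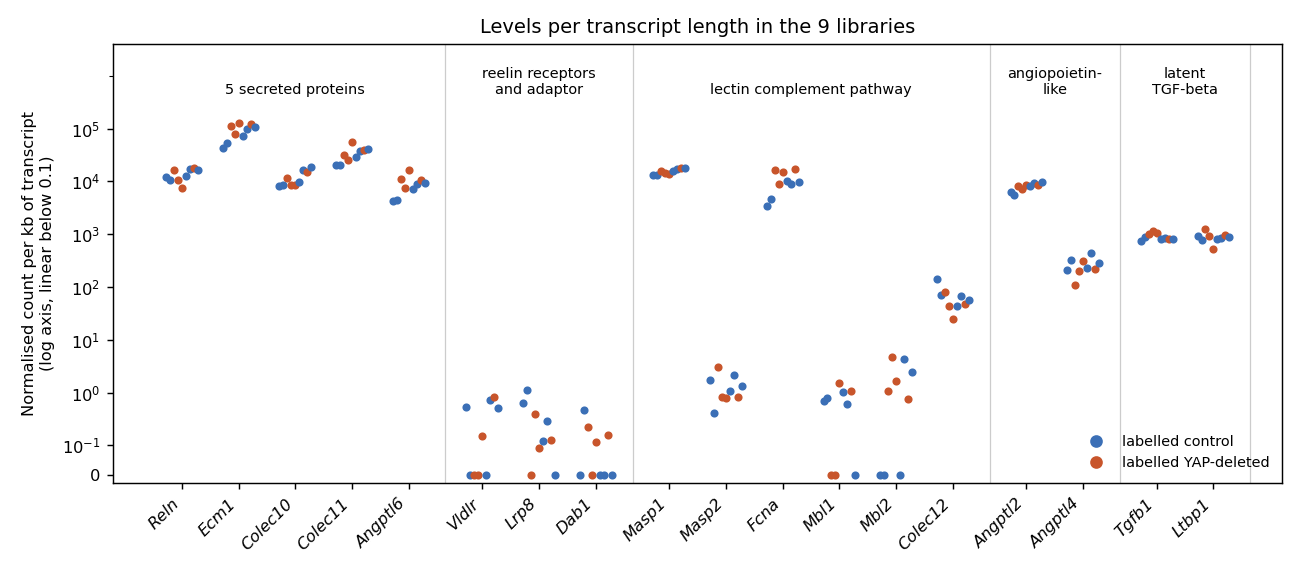
Normalised counts per kb of the longest coding transcript (log axis, linear below 0.1) for the 5 genes and for receptors and partners of their pathways, 1 point per library, blue for libraries labelled control and red for those labelled YAP-deleted. Ecm1 is highest at a mean of 90847, and the reelin receptors Vldlr and Lrp8 are below 1 on average.

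The members of each pathway that receive or carry the signal were measured in the same cells. The reelin receptors were near 0: Vldlr had at most 6.67 normalised counts and was at 0 in 4 libraries, Lrp8 had at most 7.36 and was at 0 in 2, and the adaptor Dab1 had at most 2.45 and was at 0 in 5. Reln, at 13445 counts per kb, was thus abundant in cells where Vldlr (0.304 per kb), Lrp8 (0.307) and Dab1 (0.106) were barely counted. Of 14 genes of the reelin pathway, 14 were tested with 9 libraries and 13 with 7, and 0 passed the threshold in either direction, with median differences of -0.07 and -0.01.

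For the collectins, the protease gene Masp1 was expressed at 15452 ± 1866 counts per kb (SD, n = 9), a level between those of Colec11 and Colec10. Masp2, the other protease of the pathway, had at most 9.23 normalised counts, and the mannose-binding lectins Mbl1 and Mbl2 at most 2.39 and 5.1. Masp1 had 82339 ± 11380 normalised counts (SD, n = 5) in control and 82910 ± 9615 (SD, n = 4) in YAP-deleted libraries, a difference of 0.01 log2 units with 9 libraries and 0.09 with 7. Fcna, which encodes ficolin A, a further recognition protein of the pathway, had 4632, 6456, 13863, 12354 and 13452 normalised counts in control LYT004, LYT005, LYT014, LYT015 and LYT017. It had 22864, 12197, 20843 and 23431 in YAP-deleted LYT006, LYT008, LYT013 and LYT016. LYT008 was again the one YAP-deleted library inside the control range, as for Ecm1 and Angptl6. The Fcna difference was 1.04 ± 0.34 log2 units (SE) with 9 libraries, with an adjusted p of 0.649 by limma. With 7 libraries it was 1.15 ± 0.40, with an adjusted p of 0.691 by limma. Of 15 lectin pathway genes, 14 and 13 were tested, 0 passed in either direction, and the median difference was 0.0 with 9 libraries (7 positive and 7 negative) and 0.09 with 7.

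Among the relatives of Angptl6, Angptl2, a secreted protein of the same family, was next to it in level at 7966 counts per kb, and Angptl4, an inhibitor of lipoprotein lipase, had 258. Angptl4 differed by -0.80 log2 units with 7 libraries and by -0.52 with 9, opposite in sign to Angptl6, and neither passed the threshold. Of 10 genes of this family and its receptors, 8 and 7 were tested and 0 were called, with median differences of -0.06 and -0.04. Of 17 genes of latent transforming growth factor beta, its activation and the partners of ECM1, all were tested and 0 were called, with medians of -0.05 and 0.07. Within that list Tgfb1, the ligand, was at 897 counts per kb and Ltbp1, which tethers the latent complex to matrix, at 879, both far below Ecm1. Tgfb2 had the smallest p of the list with 7 libraries, at a difference of -0.52 ± 0.13 log2 units (limma adjusted p = 0.524), while Mmp2, a gelatinase, differed by 0.43 and Ltbp3 by 0.37. With all 9 libraries these differences were smaller, at -0.19 for Tgfb2, 0.21 for Mmp2 and 0.24 for Ltbp3.

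The other genes known from quiescent stellate cells were described in the same way. With 7 libraries 15 of 20 tested genes had positive differences, with a median of 0.14, and with 9 libraries 13 of 21 with a median of 0.11; 0 were called in either direction. Those with the smallest p with 7 libraries were Lhx2, a transcription factor of the resting state, at 0.37 log2 units, Cygb, a globin of stellate cells, at 0.46, Hand2, a mesenchymal transcription factor, at 0.36, and Adamtsl2, a matrix protein, at 0.49. With all 9 libraries they were at 0.23, 0.37, 0.38 and 0.15 in that order. The 7-library differences of Ecm1 (0.57) and Angptl6 (0.62) were larger than these 4 values, and whether they differ from them was not tested. Lrat, used above to check the sort, went the other way, at -0.14 log2 units with 7 libraries and -0.26 with 9. The lowest difference of this list was -0.23 with 7 libraries and -0.66 with 9. Of 15 activation genes 13 had negative differences in both sets of libraries, with medians of -0.45 and -0.47, and with 7 libraries 1 was called: Tnc, a matricellular glycoprotein of injured matrix, fell from 7302 ± 544 (SD, n = 4) to 3400 ± 395 (SD, n = 3) normalised counts (limma adjusted p = 0.0111). With 9 libraries the Tnc difference was -0.90 log2 units (limma adjusted p = 0.649). Ecm1, Angptl6 and Colec11 thus had the opposite sign to most of the activation genes. Reln (-0.12) and Colec10 (-0.11) had the same sign as most of them with 9 libraries, and Colec10 also with 7. No member passed the threshold, and a link between the members and the activation genes was not tested.

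Some genes followed single members closely across the libraries. Only genes at or above the median level were compared, 8601 candidates for each member, by Pearson's r on the log2-like values of the same 9 libraries, and the r values are descriptions. Reln was most like Sun1 (r = 0.993), Atrnl1 (0.987) and Tapt1 (0.98). Ecm1 was most like Man2b1 (0.981), Traf3ip2 (0.978) and Tmem204 (0.975), with Angptl6 in place 6 (0.964). The nearest genes of Colec10 were Gucy1b1 (0.965) and Steap4 (0.964), and those of Colec11 were Syf2 (0.992), Sdf4 (0.992) and Rasgrp2 (0.99). Angptl6 was most like Esam (0.991), Ormdl3 (0.986) and Clstn3 (0.983), with Ecm1 in place 12. Between members, Reln and Colec11 had r = 0.08 over 9 libraries and 0.891 over the 7 without LYT013 and LYT014, and Reln and Angptl6 had 0.041 and 0.793. Colec10 and Colec11 had 0.524 and 0.96, whereas Ecm1 and Angptl6 had 0.964 and 0.989. These values share depth, length composition and the libraries themselves. The pairs whose r differed most between the 2 sets of libraries join a long with a short transcript.

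Some of the members overlap other genes in GENCODE M21. Reln shares 246 exon bases with Gm10475 on the opposite strand, Ecm1 shares 63 with the microRNA gene Mir7014 on the same strand, and Angptl6 shares 265 with A230050P20Rik on the opposite strand. No value was used here for these 3 genes, and no source used here states whether the counting used strand, so a share of their reads in the values of the members was not tested.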

How the data were processed

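The authors deposited 1 table of variance-stabilised, log2-like values with a row per gene name. How it was made is not stated by any source used here. The submitters' processing notes list bcl2fastq 2.20, kallisto 0.44.0 and sleuth, and the builds GRCm38, mm10 and GRCh38 without roles. Per the labels' protocols, poly-A and ribosomal-depletion preparations both occurred, without saying which library had which. The column for LYT013 was headed LYT013.1.

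Inverting the transformation gave counts, of which 100.0% were whole within 0.1 in each library. The planned count models were not used, because the deposited unit was not counts, and limma voom on the recovered counts was an alternative. Of 35024 rows, 13872 held the lowest value (4.96) throughout. Genes above it in at least 4 libraries were fitted on the log2 values with limma 3.58.1 (R 4.3.3), with group as the term, trended moderation and two-sided p-values adjusted by Benjamini-Hochberg over all genes. Promoter motifs and figures used Python 3.11.15. The procedure was tested on simulated data, whose outcome is not reported here. Genes were drawn independently there, so the simulation does not cover effects that many genes of a library share.

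The members and lists were chosen with earlier results of these data known. Named genes were the 5 members, Yap1, fixed receptors and partners, up to 4 genes per list with the smallest p in the 7-library fit (or those past the threshold), 3 most alike genes per member (1 of which is not reported here), and defining markers. LYT013 and LYT014 were left out in a further fit because of their Yap1 level. Alternatives covered filters, scaling, transformation, weights, covariates, and each library left out.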

Additional observations from a re-analysis of the deposited data

Results flagged for a closer look

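Among 44 groups of values, 5 held a library farther from the rest than Dixon's 95% limit allows, where chance gives about 5%. Those for Yap1 rest on the values by which LYT013 and LYT014 had already been set apart. The count of 5 is therefore no independent measure of an excess. On the log2-like scale, Yap1 was 9.41 in LYT014, whose nearest fellow control had 11.53, and 11.34 in LYT013, whose nearest fellow YAP-deleted library had 9.47. Ecm1 minus Reln was 1.45 in LYT013 and at most 0.3 in the other YAP-deleted libraries. The mean of the leukocyte markers was 5.4 in LYT013, against 5.24 in the nearest YAP-deleted library. The mean of the cell cycle genes was 9.87 in LYT008, against 7.27 in the nearest, and LYT008 had the lowest Ecm1, Colec11 and Angptl6 of the YAP-deleted libraries.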

How the results depend on the processing

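The 5 members were recomputed under 19 alternatives with 9 libraries and 17 with 7. Of 180 values, 165 kept their direction, 15 reversed, and 0 passed the threshold. The 165 include the fits with other filters on low values and without the mean-variance trend. Those settings cannot change a difference, only its p, so their directions were fixed in advance. The cause of the reversals was not tested. Ecm1 and Angptl6 stayed positive under every alternative run. Reln reversed with 9 libraries under library weights (0.029 log2 units), with the length and GC trend removed (0.104) and without LYT013 (0.110), and with 7 under the cell cycle term (-0.034), without LYT005 (-0.030) and without LYT016 (-0.063). Colec10 reversed with 9 libraries with the trend removed (0.025), without LYT015 (0.017) and without LYT017 (0.067), and with 7 under the code range term (0.096), with the trend removed (0.017), without LYT008 (0.149), without LYT015 (0.093) and without LYT017 (0.160). Colec11 reversed with 7 libraries under weights (-0.004).

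Leaving out each library in turn gave, with 9 libraries, -0.304 to 0.110 for Reln, 0.458 to 0.787 for Ecm1, -0.281 to 0.067 for Colec10, 0.162 to 0.531 for Colec11 and 0.584 to 0.954 for Angptl6. With 7 libraries it gave -0.063 to 0.336, 0.343 to 0.763, -0.263 to 0.160, 0.009 to 0.358 and 0.427 to 0.812 in that order. The genes called with 7 libraries were 25 under the code range term, 36 under the cell cycle term and between 2 (without LYT006) and 10 (without LYT015) with a library left out. No paired analysis was run, because the labels pair no control library with a YAP-deleted one.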
